A study of Homo sapiens with 5 samples.

Results

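Described here are 10 genes of the immediate early response: the Fos subunits FOS, FOSL1 and FOSL2, the Jun subunits JUN, JUNB and JUND, and ATF3, EGR1, MYC and IER3. They were chosen by name, and the reads of every transcript that GENCODE v44 assigns to each gene were summed. The 10 genes held 46 of the 227911 listed transcripts and were 10 of the 61220 genes with a listed transcript.

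The RNA came from 2 established human lung adenocarcinoma lines, NCI-H1975 and HCC827, both of which are known to carry activating EGFR mutations. Per the labels, the lines were grown separately in serum-containing medium to near confluence, dissociated to single cells and frozen before RNA was extracted, and no stimulus or drug was named. RNA of NCI-H1975 with sequin mix A and RNA of HCC827 with sequin mix B, sequins being synthetic spike-in transcripts, were combined by mass, with an HCC827 content of 0, 25, 50, 75 or 100%, and each mix gave 1 long-read cDNA library from poly(A) RNA. In library names NCI-H1975 stands first, so 100:0 and 0:100 are the pure lines and 75:25 holds 25% HCC827. A single RNA preparation per line fed all 5 libraries, so the scatter between libraries does not cover differences between cultures.

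AP-1 is a family of dimeric transcription factors in which a Jun subunit pairs with a Jun or Fos subunit, or with a relative such as ATF3, through a leucine zipper and binds a short palindrome in DNA. Immediate early genes are transcribed within minutes of a growth factor or stress signal, without new protein synthesis, and the ERK pathway downstream of EGFR is one of their main inputs. Their messenger RNAs are short-lived as a rule, so their levels can shift with culture conditions and handling. MYC is a growth-promoting transcription factor that works as a dimer with MAX.

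Libraries held 2932250 to 4058751 reads. The share of mitochondrial reads ran from 5.65% at 100:0 to 8.85% at 0:100, and the transcripts to which reads were assigned had a mean length of 2581 bases at 100:0 and 2180 at 0:100. The 100:0 library had 5475 sequin reads, and the mixed libraries had 4678, 2830 and 1269 in series order. The library labelled 0:100 had 0, although its label names mix B. All 8 epithelial markers looked for (EPCAM, KRT8, KRT18, KRT19, KRT7, CDH1, NKX2-1 and EGFR) had reads in every library, with summed levels of 5793 to 17112 CPM. Of 13 markers of other cell types, 4 to 7 had reads, with summed levels of 104 to 247 CPM. Most of that came from CD68 and COL1A1, while PTPRC, CD3E, DCN, RBFOX3 and HBB had 0 reads throughout. The part of these library properties in the slopes below was not tested, apart from the length trend and the scalings named with them.

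Levels are given as reads and as TMM-scaled reads for every 1000000 (CPM), TMM being a scaling that assumes most genes are alike between libraries. Change along the series is given as a slope, the fitted log2 difference between the 100:0 and 0:100 libraries with its standard error (SE), tested with edgeR's quasi-likelihood test over all genes and adjusted by the Benjamini-Hochberg method. A positive slope means a higher level in HCC827 relative to most genes, and not always a larger share of all reads. Because RNA was mixed by mass, less RNA of a gene per cell and fewer cells expressing it cannot be told apart.

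The AP-1 subunits did not move together. Under TMM scaling JUNB and FOSL2 fell along the series, and FOSL1, EGR1, JUND and JUN rose. The rise of JUN was lost in 9 of 14 other settings and its slope was -0.043 under library totals. JUND was level in reads per kilobase scaled to the same sum in each library (70.6 at 100:0, 71.5 at 0:100). On that scale EGR1 went from 14.8 to 17.1 with overlapping counting intervals. All 10 genes passed the read filter, and 6 of the 10 had an adjusted p under 0.05 (edgeR), 4 rising and 2 falling. Among the 13492 genes tested, 45.7% passed in either direction, 23.5% rising and 22.3% falling, so this count is close to the background and is not a result about the 10 genes. The median slope was 0.51 over the 10 genes and -0.035 over all genes. ATF3, FOS, MYC and IER3 did not pass. Values ran in order through all 5 libraries for FOSL1, JUNB, JUND, EGR1 and ATF3, and for 28.5% of all genes tested.

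The promoters of 5 of the 6 genes that passed, all but FOSL1, are shown because these genes are classic targets of signals that reach DNA through a few short elements. Sequences are from RefSeq (GRCh38.p14), 5′ to 3′ on the gene's strand, and end at the base before the RefSeq start, except that FOSL2 ends 56 bases before it, where an exon annotated in GENCODE begins. The FOSL2 window lies between the first exons of the longer GENCODE gene. The table matched FOS, FOSL2, JUN, JUNB, JUND, ATF3 and EGR1. Capitals mark the TATA box TATAAA, the cyclic AMP response element in the form TGACNTCA, its core TGACG and the CArG box, all searched on both strands, with the core also counted inside a full element.
JUNB (chr19:12791236-12791485, plus strand): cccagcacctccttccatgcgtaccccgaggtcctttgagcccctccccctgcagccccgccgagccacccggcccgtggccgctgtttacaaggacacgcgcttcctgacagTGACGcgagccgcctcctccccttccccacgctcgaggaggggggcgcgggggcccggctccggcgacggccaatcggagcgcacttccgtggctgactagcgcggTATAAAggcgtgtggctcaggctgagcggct
FOSL2 (chr2:28392608-28392801, plus strand): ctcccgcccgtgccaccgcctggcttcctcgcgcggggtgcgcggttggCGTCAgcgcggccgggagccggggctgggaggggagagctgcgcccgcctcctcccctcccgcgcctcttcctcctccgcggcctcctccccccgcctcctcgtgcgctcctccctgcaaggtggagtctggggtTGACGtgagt
JUND (chr19:18281623-18281872, minus strand): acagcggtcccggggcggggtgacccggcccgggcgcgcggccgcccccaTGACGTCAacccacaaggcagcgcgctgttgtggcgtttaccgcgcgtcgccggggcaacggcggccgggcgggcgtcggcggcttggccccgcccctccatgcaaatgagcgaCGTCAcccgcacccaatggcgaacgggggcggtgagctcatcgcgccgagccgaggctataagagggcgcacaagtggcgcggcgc
JUN (chr1:58784048-58784297, minus strand): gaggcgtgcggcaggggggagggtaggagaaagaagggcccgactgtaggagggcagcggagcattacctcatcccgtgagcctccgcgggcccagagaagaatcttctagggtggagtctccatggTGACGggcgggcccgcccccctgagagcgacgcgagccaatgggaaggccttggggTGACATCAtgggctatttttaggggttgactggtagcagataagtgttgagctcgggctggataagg
EGR1 (chr5:138465229-138465478, plus strand): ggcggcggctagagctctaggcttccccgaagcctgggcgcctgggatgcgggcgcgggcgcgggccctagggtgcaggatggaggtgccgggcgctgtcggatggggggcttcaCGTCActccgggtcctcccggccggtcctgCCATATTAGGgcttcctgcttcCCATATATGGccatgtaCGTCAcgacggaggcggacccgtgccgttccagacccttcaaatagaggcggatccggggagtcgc

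In these windows EGR1 held 2 CArG boxes, the element bound by serum response factor, 105 and 83 bases before its start. A CArG box occurred in 1.16% of the 35116 promoter windows of 250 bases in the table. JUNB held a TATA box 31 bases before its start, a motif found in 10.7% of windows. JUN held TGACATCA 67 bases before its start and JUND held TGACGTCA 200 bases before its start. The form TGACNTCA occurred in 6.87% of windows. The core TGACG was present in all 5 printed windows and in 21.2% of all windows. The AP-1 element in the form TGANTCA, found in 6.57% of windows, had no match in the 5. Longer forms such as the TGACATCA in JUN cannot match that search. It therefore does not show that a window lacks an AP-1 site. The E-box bound by MYC and MAX, CACGTG, was found in 6.34% of windows and in none of the 5. A match of letters is a description and not evidence of binding.

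JUNB, a Jun subunit that activates transcription more weakly than JUN in many settings, had the largest slope in size of the 10 genes. It had 877 reads at 100:0, 1001 at 75:25, 699 at 50:50, 391 at 25:75 and 220 at 0:100. In CPM these were 262, 235, 182, 139 and 83.0, so each library lay below the one before it in the series. The slope of JUNB was -1.59 ± 0.17 (SE; edgeR, adjusted p = 1.30e-05), and the 100:0 library was 3.16-fold higher than the 0:100 library (95% counting interval 2.72 to 3.68). The call held in each of the 14 other settings run. HOOK2, a gene that overlaps JUNB on the opposite strand, had 599 reads in all against 3188 of JUNB. Its reads were 100, 155, 135, 125 and 84 in series order, and whether counting used the strand is not given in the sources used here.

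FOSL1, which encodes Fra-1, a Fos subunit without the strong activation domain of FOS and known as an ERK-responsive gene in carcinoma, moved the other way. Its reads were 188, 311, 334, 331 and 334 in series order, or 56.2, 73.1, 87.0, 117 and 126 CPM. Every step was upward, and the 95% counting intervals of the pure libraries did not overlap. The slope was 1.20 ± 0.14 (SE; edgeR, adjusted p = 2.94e-05), and the 0:100 library was 2.24-fold higher than the 100:0 library (1.87 to 2.70). This call also held in all 14 other settings.

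FOSL2 encodes Fra-2, the closest relative of Fra-1. It had 242, 311, 225, 168 and 126 reads, or 72.3, 73.1, 58.6, 59.6 and 47.5 CPM. The libraries with most NCI-H1975 RNA were highest, but the values did not run in order. Its slope was -0.60 ± 0.16 (SE; edgeR, adjusted p = 0.00892). The call was lost without the 0:100 library (adjusted p = 0.110), in the comparison of the 2 libraries richest in NCI-H1975 with the 2 richest in HCC827 (2 against 2, 0.106) and when the trend of each library on transcript length was removed (0.117). That last setting moved the slope to -0.32. FOSL2 transcripts were the longest of the 10 genes, with a read-weighted mean of 6290 bases against 1291 to 3257 for the others, and mean transcript length itself fell along the series.

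FOS, the founding Fos subunit, was near the limit of what the depth could show. It had 10, 15, 10, 8 and 17 reads, or 2.99, 3.53, 2.60, 2.84 and 6.41 CPM. The 0:100 library was highest, but the counting intervals of all 5 libraries overlapped. The slope was 0.87 ± 0.63 (SE; edgeR, adjusted p = 0.278), and it turned to -0.30 without the 0:100 library, so no trend was detectable at this depth.

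JUND, the Jun subunit least dependent on growth signals, had 341, 528, 489, 426 and 433 reads, or 102, 124, 127, 151 and 163 CPM. TMM-scaled levels ran upward through all 5 libraries. The slope of JUND under TMM was 0.65 ± 0.12 (SE; edgeR, adjusted p = 0.000964). On that scale the 0:100 library was 1.60-fold higher than the 100:0 library (1.39 to 1.85). Per length (reads per kilobase, scaled to the same sum in each library) JUND was level. Those values were 70.6, 74.8, 69.0, 73.7 and 71.5 in series order. Counting intervals of the pure libraries overlapped there (63.3 to 78.5 at 100:0 and 64.9 to 78.5 at 0:100). Scaled by library totals alone, the slope of JUND was 0.24 and did not pass (adjusted p = 0.115). JUND also did not pass in the 2 against 2 comparison (0.0792), where 9.32% of genes rose and 7.97% fell.

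JUN, the subunit that gives the family its name, was nearly level. Its reads were 285, 354, 353, 279 and 285, or 85.2, 83.2, 91.9, 99.0 and 108 CPM. The pure libraries held the same number of reads, so its direction rests on the scaling. The slope was 0.37 ± 0.13 (SE; edgeR, adjusted p = 0.0338) under TMM and -0.043 under library totals (adjusted p = 0.802). The call was also lost under DESeq2's Wald test (adjusted p = 0.0987), without the read filter, with 10 reads required in every library, in the 2 against 2 comparison (0.188) and without the 75:25 (0.104), 50:50 (0.0558), 25:75 (0.0539) or 0:100 library (0.210).

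**Figure D1:**
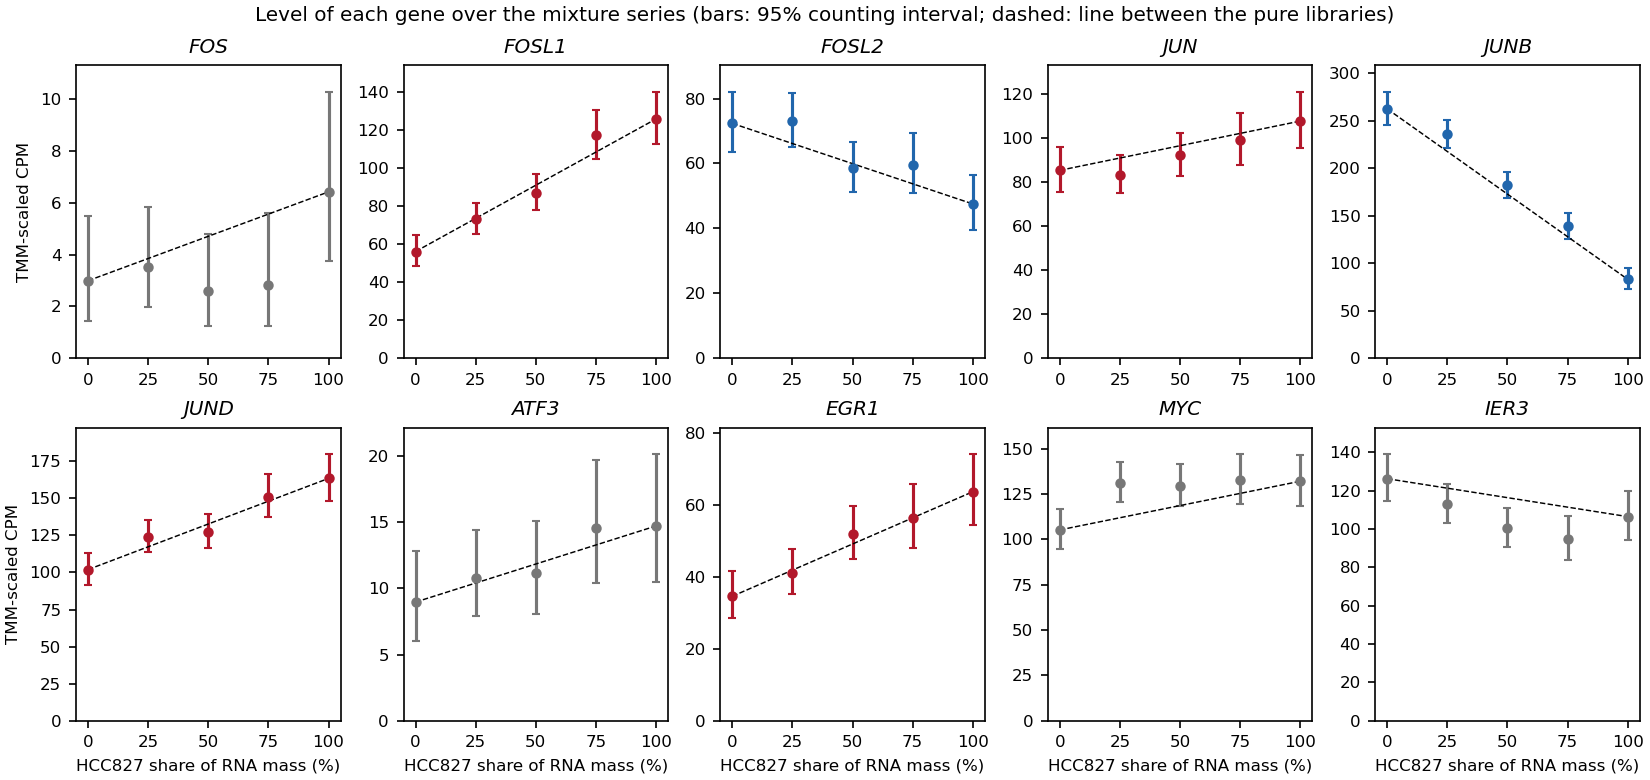
TMM-scaled CPM (y axis, from 0, a scale of its own in each panel) of each of the 10 genes against the HCC827 share of RNA mass in percent (x axis), 1 point per library with its 95% counting interval and a dashed line between the pure libraries. Red genes rose, blue genes fell and grey genes did not pass (edgeR); JUNB went from 262 to 83.0 CPM and FOSL1 from 56.2 to 126 CPM.

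Shares of reads within each family do not depend on how libraries were scaled. They are not corrected for transcript length, so they do not give the order of levels. Mean transcript length fell along the series, so shifts in shares can also depend on length. With the length trend removed, slopes went from 1.20 to 0.99 for FOSL1 and from -0.60 to -0.32 for FOSL2. They went from -1.59 to -1.75 for JUNB and from 0.65 to 0.50 for JUND. In the 100:0 library JUNB gave 58.3% of the Jun subunit reads (95% Wilson interval 55.8 to 60.8), JUND 22.7% and JUN 19.0%. In the 0:100 library JUND gave 46.2% (43.0 to 49.4), JUN 30.4% and JUNB 23.5% (20.9 to 26.3), so the subunit with most reads differed between the lines. JUNB had 2.57 reads for each JUND read at 100:0, then 1.90, 1.43, 0.918 and 0.508 at 0:100. At 25:75 the 95% interval of that ratio, 0.798 to 1.06, included equal numbers.

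Read shares of FOSL1 and FOSL2 crossed as well, although per length FOSL1 was the higher in every library, at 48.4 against 15.4 at 100:0 and 69.1 against 6.43 at 0:100 (reads per kilobase, scaled to a sum of 1000000). FOSL2 gave 55.0% of Fos subunit reads at 100:0 (50.3 to 59.6) and 26.4% at 0:100 (22.7 to 30.5), while FOSL1 gave 42.7% (38.2 to 47.4) and 70.0% (65.8 to 74.0). FOS stayed between 1.58% and 3.56% in all 5 libraries. The ratio of FOSL1 to FOSL2 reads was 0.777 at 100:0, exactly 1 at 75:25, then 1.48, 1.97 and 2.65. Summed over each family, Fos subunits went from 132 to 180 CPM and Jun subunits from 449 to 354 CPM between the pure libraries.

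**Figure D2:**
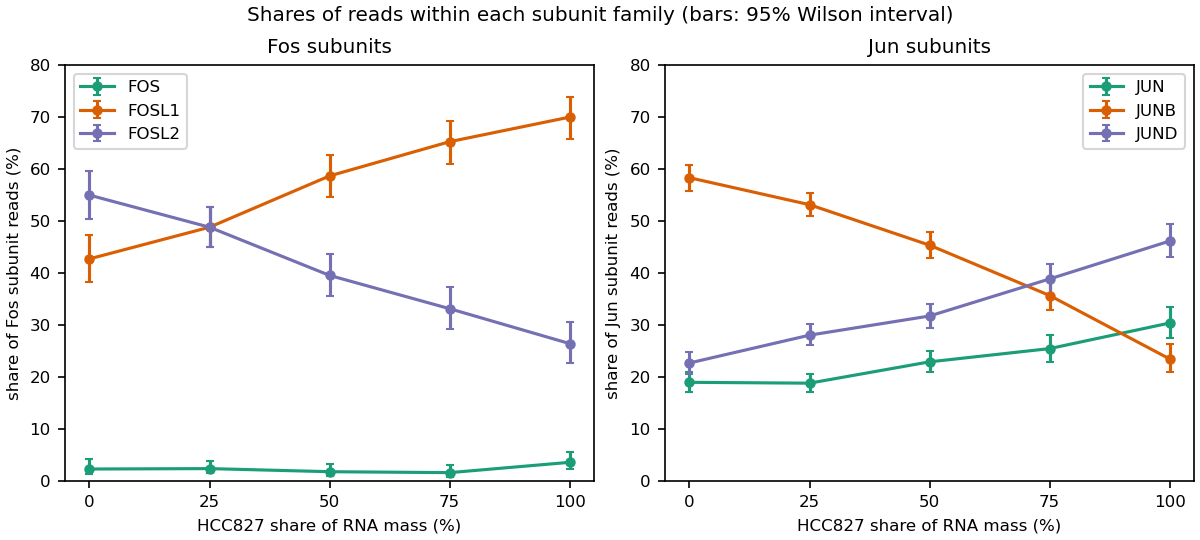
Share of reads in percent (y axis) of each gene within the Fos subunits (left) and the Jun subunits (right) against the HCC827 share of RNA mass in percent (x axis), 1 point per library with its 95% Wilson interval. FOSL1 and FOSL2 meet at 75:25 with 48.8% each, and JUNB goes from 58.3% to 23.5% while JUND goes from 22.7% to 46.2%.

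EGR1, a zinc finger factor induced by ERK signalling through the serum response factor, had 116, 175, 200, 159 and 169 reads, or 34.7, 41.1, 52.1, 56.4 and 63.8 CPM. Each library lay above the one before it. The slope was 0.88 ± 0.17 (SE; edgeR, adjusted p = 0.000957), and the 0:100 library was 1.84-fold higher (1.44 to 2.35). Under library totals the slope was 0.47 and still passed (adjusted p = 0.0334). Per length (reads per kilobase, scaled to the same sum in each library) EGR1 was 14.8 at 100:0 and 17.1 at 0:100. Counting intervals of the pure libraries overlapped there (12.2 to 17.7 and 14.7 to 19.9).

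ATF3, a stress-induced relative of the AP-1 subunits that can repress as a homodimer, had 30 to 46 reads per library. Its CPM values were 8.97, 10.8, 11.2, 14.5 and 14.7, in order along the series with overlapping counting intervals. The slope was 0.73 ± 0.31 (SE; edgeR, adjusted p = 0.0698).

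MYC had 352, 558, 497, 374 and 350 reads, or 105, 131, 129, 133 and 132 CPM. The 100:0 library was lowest and the other 4 were alike within their counting intervals. The slope was 0.26 ± 0.14 (SE; edgeR, adjusted p = 0.146), 0.031 without the 100:0 library and -0.15 under library totals (adjusted p = 0.366). Per length (reads per kilobase, scaled to the same sum in each library) MYC went from 61.3 at 100:0 to 49.5 at 0:100. No direction can therefore be given for MYC.

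IER3, an early response gene linked to the control of apoptosis, had 422, 480, 386, 267 and 282 reads, or 126, 113, 101, 94.7 and 106 CPM. The level was highest at 100:0 and lowest at 25:75. The slope was -0.30 ± 0.14 (SE; edgeR, adjusted p = 0.0967). It passed under library totals with a slope of -0.72 (adjusted p = 0.00105), without the 0:100 library with -0.57 (0.0223), with 10 reads required in every library (0.0385) and with the length trend removed (0.00637). IER3 transcripts were the shortest of the 10 genes, at a mean of 1291 bases. Per length IER3 went from 131 at 100:0 to 69.6 at 0:100, and the counting intervals did not overlap.

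The scaling set several of these calls. TMM factors ran from 1.16 at 100:0 to 0.868 at 0:100, and scaling by totals alone moved the median slope of all genes from -0.035 to -0.45. Of all genes called, 51.3% rose under TMM and 26.0% under totals, where 51.3% of the genes tested passed, 13.4% rising and 37.9% falling. Under totals 5 of the 10 genes passed, with FOSL1 and EGR1 rising and JUNB, FOSL2 and IER3 falling. Totals lowered the slopes of the 10 genes and the median of all genes by a similar amount. The side of that median on which a gene lies is therefore no separate check. Without the 0:100 library 5 passed, with FOSL1, EGR1 and JUND rising at 1.38, 0.98 and 0.69 and JUNB and IER3 falling at -1.24 and -0.57, against 30.5% of all genes tested.

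**Figure D3:**
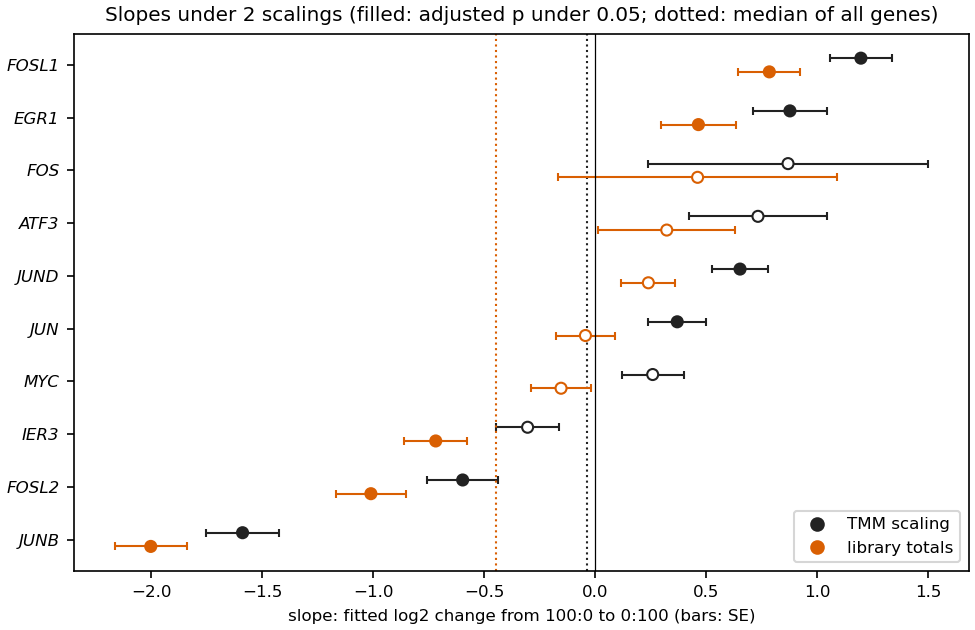
Slope (x axis, fitted log2 change from 100:0 to 0:100) of each gene (y axis) under TMM scaling (black) and library totals (orange), with SE bars, filled points for an adjusted p under 0.05 and dotted lines at the median of all genes (-0.035 and -0.45). JUN and MYC change sign between the scalings, and JUND passes at 0.65 but not at 0.24.

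Values of the mixed libraries were set against a straight line between the pure libraries on the linear TMM-scaled CPM scale. A mixture should be linear in shares of reads, but TMM factors changed along the series, from 1.16 to 0.868. The line is therefore approximate here, and the exceptions were not checked on library totals. The line lay inside the 95% counting interval in 26 of 30 cases. That held in all 3 mixed libraries for FOS, FOSL1, FOSL2, JUN, JUND, ATF3 and EGR1. FOS lay at 0.554 of the line at 50:50 and 0.511 at 25:75, on 10 and 8 reads with wide intervals. For FOS the counts are too low to show agreement. The intervals also leave out the counting error of the pure libraries that set the line. The exceptions were JUNB at 75:25 (235 CPM against 217 on the line), MYC at 75:25 (131 against 112) and IER3 at 50:50 (101 against 116) and 25:75 (94.7 against 111).

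The order of levels between genes was taken per length, as reads per kilobase scaled to a sum of 1000000 over all transcripts of a library. In the 100:0 library JUNB was highest at 191 (95% counting interval 179 to 204), followed by IER3 at 131, JUND at 70.6, MYC at 61.3, FOSL1 at 48.4 and JUN at 34.9. The intervals of JUND and MYC overlapped, as did those of MYC and FOSL1. FOSL2 and EGR1, at 15.4 and 14.8, overlapped as well, as did EGR1 and ATF3 at 8.80, and FOS at 1.90 came last. In the 0:100 library JUND, IER3 and FOSL1 led at 71.5, 69.6 and 69.1 with overlapping intervals. MYC followed at 49.5, JUNB at 38.3, JUN at 27.9 and EGR1 at 17.1. ATF3 at 8.60 and FOSL2 at 6.43, with overlapping intervals, and FOS at 2.57 were the lowest there.

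At transcript level, JUN, JUNB and EGR1 each had a single listed transcript, and JUND-201 held all but 3 of the 2217 JUND reads. FOSL1-201 and FOSL1-202 held 50.5% and 48.1% of FOSL1 reads, and FOSL2-201 and FOSL2-202 held 52.7% and 47.2% of FOSL2 reads. IER3-201 and IER3-202 held 52.0% and 48.0%. MYC reads were spread over MYC-202 (25.6%), MYC-209 (23.8%), MYC-206 (22.5%) and MYC-210 (22.0%). How the authors' counting divided reads among such similar transcripts is not given in the sources used here, so near-even shares are uncertain.

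Of 18 transcripts of these genes that could be tested, 7 passed (edgeR), 4 rising and 3 falling, against 33.6% of all 31758 transcripts. FOSL1-201 and FOSL1-202 rose with slopes of 1.16 and 1.11, and FOSL2-201 and FOSL2-202 fell with slopes of -0.66 and -0.64, so both main transcripts of each gene moved in its direction. The other 3 were JUNB-201, JUND-201 and EGR1-201. Transcript usage could be tested in MYC, IER3, FOSL1, FOSL2 and ATF3. It changed detectably in 0 of these 5 (edgeR diffSpliceDGE, Simes, adjusted p = 1.00 for each), with 0 at an unadjusted p under 0.05 and 0 by the gene-level F test, against 0.416% and 0.832% of the 7456 genes tested.

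The genes lie on separate chromosomes for the most part, with JUN (ENSG00000177606.9) at 58776845 to 58784048 and ATF3 (ENSG00000162772.18) at 212565334 to 212620777 on chromosome 1, FOSL2 (ENSG00000075426.12) at 28392448 to 28417317 on chromosome 2, EGR1 (ENSG00000120738.8) at 138465479 to 138469303 on chromosome 5 and IER3 (ENSG00000137331.12) at 30743199 to 30744548 on chromosome 6 (GRCh38, GENCODE v44). MYC (ENSG00000136997.22) lies at 127735434 to 127742951 on chromosome 8, FOSL1 (ENSG00000175592.9) at 65892049 to 65900573 on chromosome 11 and FOS (ENSG00000170345.10) at 75278826 to 75282230 on chromosome 14. JUNB (ENSG00000171223.6), at 12791486 to 12793315, and JUND (ENSG00000130522.6), at 18279694 to 18281622, share chromosome 19. Antisense genes overlapping FOSL2 (FOSL2-AS1, 25 reads), IER3 (IER3-AS1, 3 reads, and HCG20, 4 reads) and MYC (CASC11, 22 reads) had few reads.

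Genes within 1000000 bases were counted after the slopes had been seen. Counts are under TMM scaling only, where 23.5% of all genes tested rose and 22.3% fell. Around JUNB, 19 of 52 tested genes fell and 2 rose, with a median slope of -0.70, and 9 of the 52 had a slope below that of JUNB. Around JUND, 30 of 51 rose and 3 fell, with a median of 0.84, and 30 of the 51 lay above JUND. Around FOSL1, 39 of 81 rose and 10 fell, with a median of 0.55, and 14 of the 81 lay above FOSL1. Called neighbours of JUNB, JUND and FOSL1 went mostly in the direction of these genes. Around JUN, 3 rose and 0 fell, but only 6 genes were tested. Around EGR1, which rose, 3 of 24 rose and 5 fell, and around FOSL2 4 of 18 rose and 4 fell. Among genes that did not pass, IER3 had 26 rising and 2 falling of 53 against its slope of -0.30, FOS had 3 rising and 9 falling of 22 against 0.87, and ATF3 had 1 rising and 5 falling of 15 against 0.73. MYC had 3 rising and 1 falling of 5. The part of chromosomal position in these slopes was not tested.

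**Figure D4:**
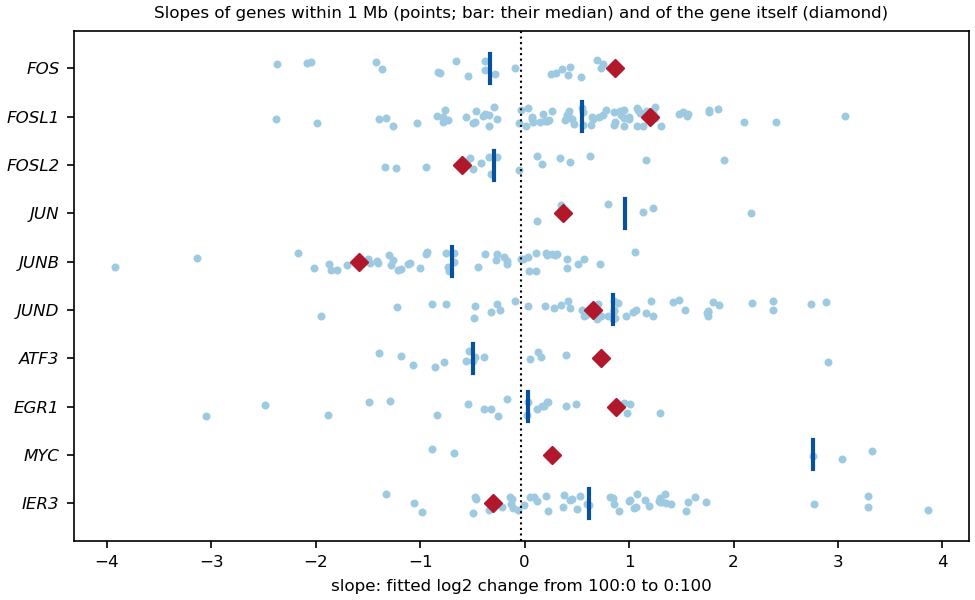
Slope (x axis, fitted log2 change from 100:0 to 0:100, TMM scaling) of each tested gene within 1000000 bases of each of the 10 genes (y axis; blue points, with a bar at their median), and of the gene itself (red diamond); the dotted line is the median of all genes. Neighbours of JUNB have a median of -0.70 and those of JUND a median of 0.84.

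For the 3 genes with the smallest adjusted p, the genes most alike in profile were those with the smallest Euclidean distance between centred log2 CPM over the 5 libraries, among 5282 genes with at least 500 reads. For JUNB these were DECR1 (distance 0.062) and SEPTIN7 (0.071), for FOSL1 RPL37 (0.040) and ZFAND5 (0.048), and for EGR1 UBE2R2 (0.057) and SEPTIN9 (0.059). With 5 points per profile many genes come close.

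Other genes of the same pathways were taken from lists by function, and counts are of adjusted p under 0.05 over all genes tested (edgeR). Among other AP-1 and related leucine zipper factors, 19 of 22 were tested, 4 rose, 5 fell and 10 did not pass, with a median slope of -0.30. Over all genes tested, 23.5% rose and 22.3% fell, so this split is close to the background. BATF3, a factor that pairs with Jun subunits, rose from 2.09 to 35.5 CPM, on 7 reads at 100:0 and 94 at 0:100. ATF4, the effector of the integrated stress response, rose from 251 to 439 CPM. CREB5 fell from 14.9 to 4.15 CPM and CREB1, which binds the cyclic AMP response element, from 30.2 to 15.8 CPM. FOSB and BATF were too low to test, with 13 and 14 reads in all.

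Of 40 other immediate early genes, 35 were tested, 12 rose, 6 fell and 17 did not pass, with a median slope of 0.062. CCN1, a secreted matrix protein, had 55.9, 155, 266, 322 and 396 CPM (slope 2.52 ± 0.31, SE; edgeR, adjusted p = 4.28e-05). ID2, an inhibitor of helix-loop-helix factors, rose from 3.59 to 30.6 CPM. IER5, a close relative of IER2, had 138, 125, 110, 71.6 and 47.9 CPM (slope -1.47 ± 0.19, SE; edgeR, adjusted p = 5.48e-05), and CCN2, a relative of CCN1, fell from 14.6 to 2.26 CPM. EGR2, EGR3, EGR4, NR4A3 and ARC were too low to test, at 18, 7, 2, 3 and 1 reads in all. Over all genes tested, 23.5% rose and 22.3% fell.

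Among 21 kinases and factors upstream of these genes, all tested, 6 rose and 4 fell, with a median slope of -0.062. MAP2K7, which activates the Jun kinases, rose from 43.3 to 116 CPM and MAP3K1 from 5.98 to 12.5 CPM. ELK3, a ternary complex factor that works with serum response factor, fell from 72.6 to 29.1 CPM and MRTFB, a coactivator of the same factor, from 30.2 to 18.1 CPM. A list of MAX network genes and other genes tied to MYC is called the MAX network here. In it, 21 of 22 genes were tested, 5 rose and 3 fell, with a median slope of -0.11. RUVBL2 rose from 60.7 to 166 CPM and MXD3, which competes with MYC for MAX, from 49.0 to 88.7 CPM, while MGA fell from 41.6 to 12.5 CPM. MYCN had 0 reads, which allows up to 3 in each library. Counts of the upstream and MAX lists were close to the shares over all genes tested, 23.5% rising and 22.3% falling.

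Under the main read filter, more textbook AP-1 target genes fell than rose. Of 20, 16 were tested, 8 fell, 3 rose and 5 did not pass, with a median slope of -0.71, against the background of 22.3% of all genes falling. MMP13, a collagenase, had 26.0, 16.5, 10.7, 7.80 and 1.13 CPM, on 87 reads at 100:0 and 3 at 0:100, and HMOX1, the haem-degrading oxygenase, had 128, 97.6, 66.9, 45.4 and 12.1 CPM. AREG, an EGFR ligand, rose from 36.8 to 97.3 CPM and CXCL8 from 11.1 to 20.8 CPM. With 10 reads required in every library, 12 of the list were tested, 4 fell and 2 rose, with a median slope of -0.14. Over all 10884 genes tested there, 2684 rose and 2616 fell. MMP1, MMP10, MMP13 and HBEGF, with 0, 0, 3 and 5 reads at 0:100, were not tested there. They fell under the main filter, which they passed only through libraries with NCI-H1975 RNA.

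More of the textbook MYC target genes rose than fell under TMM, but not under library totals, where 4 rose and 7 fell. Of 25, 23 were tested, 13 rose, 2 fell and 8 did not pass, with a median slope of 0.50, against 23.5% of all genes rising. CDK4, a cell-cycle kinase, rose from 62.8 to 1364 CPM and FBL, a nucleolar methyltransferase, from 100 to 369 CPM. LDHA, a glycolytic enzyme, fell from 519 to 264 CPM and GNL3, a nucleolar GTP-binding protein, from 120 to 66.8 CPM. Library totals lowered the median slopes of the list and of all genes alike, to 0.089 and -0.45. The gap between these medians is therefore no separate check. With the length trend removed 9 of the list rose and 2 fell, with a median slope of 0.26. Over all 13492 genes 3083 rose and 2911 fell there. In the 2 against 2 comparison 2 of the list rose and 0 fell, where 9.32% of all genes rose.

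**Figure D5:**
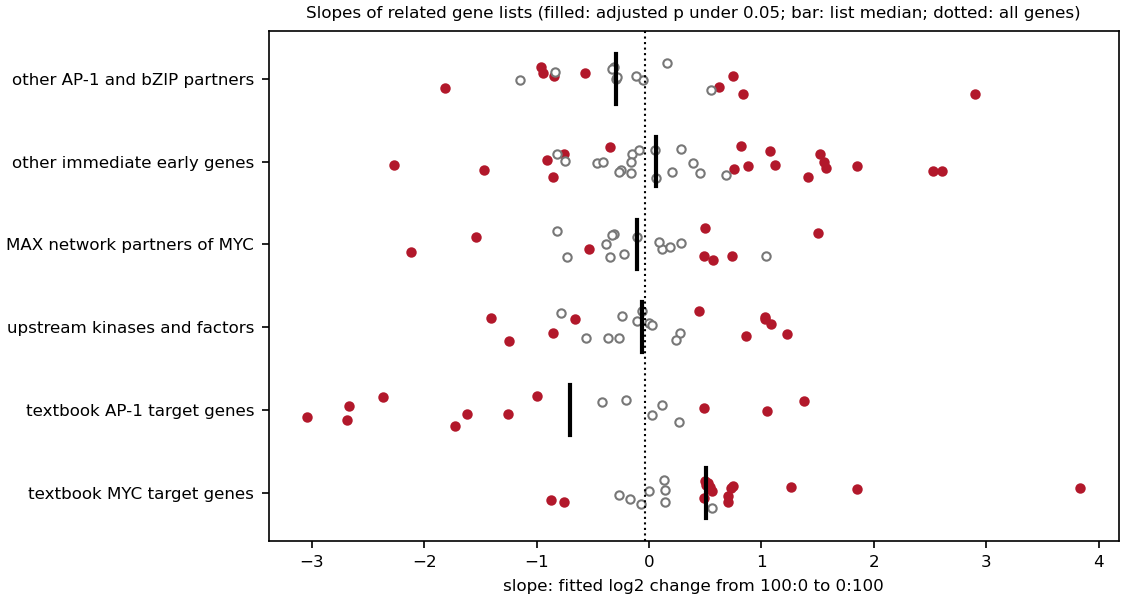
Slope (x axis, fitted log2 change from 100:0 to 0:100, TMM scaling) of each tested gene of the 6 lists (y axis), filled where the adjusted p was under 0.05 (edgeR), with a bar at each list's median and a dotted line at the median of all genes. The medians are -0.71 for AP-1 targets and 0.50 for MYC targets. With 10 reads required in every library the median of AP-1 targets was -0.14. With the length trend removed the median of MYC targets was 0.26.

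Library totals turned most other splits towards falling: 2 rose and 10 fell among AP-1 relatives, 8 and 13 among immediate early genes, 3 and 10 upstream, 1 and 9 in the MAX network and 1 and 10 among AP-1 targets. Under totals, 13.4% of all genes tested rose and 37.9% fell. Leaving out single libraries moved the total called by more than 1.5 times in 3 lists. Over all genes tested, 16.9% rose and 13.6% fell without 0:100, and 2401 and 2275 of 13183 without 100:0. Rising and falling were 2745 and 2452 of 13081 without 75:25, and 2862 and 2672 of 13383 without 25:75. Without 0:100 the upstream list had 2 rising and 2 falling, the MAX network 2 and 3 and the AP-1 targets 2 and 5. Without 100:0 the upstream list had 3 and 3 and the MAX network 3 and 2, and without 75:25 the MAX network had 3 and 2. Counts in 1 direction moved as far in other cases. The upstream list had 3 rising and 4 falling without 75:25 and without 25:75, AP-1 relatives had 3 and 3 without 100:0 and without 0:100, and MYC targets had 8 and 2 without 0:100.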

How the data were processed

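The authors deposited 1 table per library with estimated counts of reads per transcript, not scaled. The submitters' processing notes name minimap2 2.24, Salmon 1.9.0 and GRCh38, with no roles, and the annotation release is not given in the sources used here. All but 2 values were whole, and these were rounded. Identifiers listed more than once (161) were summed. Of 227751 human transcripts, 224076 matched GENCODE v44 and held 98.6% of human reads, and 3675 did not match. Gene sums were fitted with edgeR 4.0.16 in R 4.3.3, with genes of at least 10 reads in at least 2 libraries, TMM scaling, and the HCC827 mass fraction as covariate at a threshold of 0.05. DESeq2 1.42.0 and limma 3.58.1 (voom) were alternatives. On simulated data with 13156 genes the fit recovered 38 of 95 genes with a 2-fold change and 73 of 95 with a 4-fold change. It also called 4 unchanged genes. In the real data 45.7% of genes passed, which makes the adjusted threshold less strict than in the simulation. The recovered shares therefore hold for the simulation only. A gene that did not pass may still differ. Counting intervals are exact at 95%, a count of 0 allows up to 3 reads, and neither covers PCR copies. Each ratio had 1 library, so no ratios were tested against each other. Depth was 2932250 to 4058751 reads. The 10 genes and the lists were chosen with earlier results of these data known. All 10 genes are named, and from each list up to 2 genes per direction with the largest slopes, called and in order. Sequins and unmatched transcripts entered no gene sum.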

Additional observations from a re-analysis of the deposited data

Results flagged for a closer look

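Sequin reads entered none of the comparisons. They numbered 5475 in the 100:0 library, above the 3 reads that a count of 0 allows. The mixed libraries had 4678, 2830 and 1269 in series order, and the library labelled 0:100 had 0.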

How the results depend on the processing

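The number of genes called was 6172. It was 2291 in the comparison of 2 libraries against 2, and between 4068 (without 0:100) and 5859 over the fits that left out 1 library. Of the 10 genes, 6 were called, 3 (FOSL1, EGR1 and JUNB) in the 2 against 2 comparison, where 17.3% of genes passed, and 5 to 6 when 1 library was left out. Transcripts called were 10660, and 6287 (without 0:100; 6626 without 100:0) to 10171 when 1 library was left out. Transcript usage was called in 0 of the genes in each of these fits. Signs turned for JUN (-0.043) and MYC (-0.15) under library totals and for FOS (-0.30) without the 0:100 library (up to 1.16 without 100:0), and the pure-library ratios of JUN and MYC became 0.944 and 0.939 under totals. Totals shift every slope by construction, and the cause of the other shifts was not tested. Of the other slope values of the 10 genes, 119 kept direction and side of the threshold, 13 lost the call, 4 gained it and 3 turned. Removal of the length trend was added after seeing the data. No paired analysis was possible because each ratio had 1 library. Low reads limit FOS and ATF3.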
